A study of Homo sapiens with 6 samples.

Results

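Expression of 8 leukocyte integrin genes was examined in NB4 cells with and without ARID1A, which belongs to SWI/SNF, a complex that remodels chromatin. The genes form a list of names, with no threshold on a measured value, drawn up with earlier results of these data known: ITGAM, which encodes CD11b, its relatives ITGAL and ITGAX, their shared partner ITGB2, and the integrin chains ITGA4, ITGA5, ITGB1 and ITGB7. They were 8 of the 52992 genes summed from the deposited transcript tables, and all 8 were among the 18514 genes with enough counts to be tested. NB4 is an established acute promyelocytic leukemia cell line. All 6 samples were NB4 cells carrying Cas9 with an inducible small guide RNA (sgRNA), and per the labels all were exposed to doxycycline at 1 µg/ml for 7 days, controls included. The sgRNA was LacZ in 2 samples (genotype label WT), ARID1A sg1 in 2 and ARID1A sg5 in 2 (both labelled ARID1A-deficient). Each group was a transduced cell population of a single line and not a set of clones, the methods add a culture without doxycycline before RNA extraction, and none of these libraries is labelled as treated with all-trans retinoic acid (ATRA), the agent after which the study measured CD11b on the cell surface.

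Integrins are cell surface receptors made of an alpha chain and a beta chain, and a chain that finds no partner is largely kept inside the cell. ITGB2 (β2, CD18) pairs with αL (ITGAL, CD11a) to form LFA-1, with αM (ITGAM, CD11b) to form Mac-1, with αX (ITGAX, CD11c), and with αD (ITGAD, CD11d). These receptors bind ICAM proteins and complement fragments, and CD11b is a standard surface marker of maturing granulocytes and monocytes. ITGA4 pairs with ITGB1 or ITGB7 and binds VCAM1, fibronectin or MADCAM1, while ITGA5 pairs with ITGB1 as the main fibronectin receptor.

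The sequence upstream of ITGAM is shown because this gene encodes the CD11b protein that the study measured. The gene lies on the plus strand at chr16:31259967-31332892 (GRCh38), 22241 bases before ITGAX, which is followed by ITGAD after another 10314 bases. The 250 bases before the RefSeq start (chr16:31259725-31259974, plus strand, GRCh38.p14) read, with GGAA or its reverse complement TTCC in capitals:
ITGAM promoter: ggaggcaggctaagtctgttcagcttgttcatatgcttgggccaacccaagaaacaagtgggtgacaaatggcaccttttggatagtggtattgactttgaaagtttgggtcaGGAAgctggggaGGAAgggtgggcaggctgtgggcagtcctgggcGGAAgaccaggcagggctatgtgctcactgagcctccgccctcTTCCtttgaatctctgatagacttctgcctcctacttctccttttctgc
GGAA is the core bound by ETS family factors, which include the myeloid factor PU.1. It occurred 4 times on either strand, and 92.7% of 35116 promoter windows of this length held it at least once and 34.3% at least 4 times. GGGCGG, the core of GC boxes, occurred 2 times on either strand (in 42.6% of windows), and 1 of these matches overlapped an ETS core. The TATA box letters TATAAA were absent from this window (10.7% of windows held them). Such matches describe letters and not binding, and no binding or accessibility measurement of NB4 cells was used here.

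Total estimated counts were between 46131178 and 54843745 per sample, and each of the 8 genes had at least 880 estimated counts in every sample. Replicate 1 of sg1 and replicate 2 of sg5 stood apart from the other 4 samples on the first principal component of log2 CPM (counts scaled to the library's size). It held 34.4% of the variance, and they scored 34.3 and 46.8, whereas the others scored between -30.3 and -11.3. On the second component (19.1% of the variance) replicate 1 of sg5 stood alone at 42.9, with the others between -26.3 and 9.9. ARID1A RNA did not separate the groups as labelled. Its TPM (a level scaled to transcript length and library size) was 29.6 and 35.1 in LacZ, 38.0 and 36.4 with sg1, and 24.3 and 26.9 with sg5. The libraries labelled sg1 were thus above both LacZ samples and those labelled sg5 below them, and in edgeR the log2 fold change was 0.22 for sg1 (adjusted p = 0.993) and -0.36 for sg5 (adjusted p = 0.661). Without the 2 samples apart on the first component, a fit chosen after seeing the data that left 1 sample per sgRNA, it was -0.48 in sg5 and 0.15 in sg1. Edits made by Cas9 can disrupt a protein without removing the RNA, so this level does not check the labels. The study followed ARID1A protein in these cells by immunoblot, a measurement not analysed here, and all directions below are those of libraries labelled sg1 and sg5. Of the promyelocyte markers, MPO, the myeloperoxidase of primary granules, was between 5991 and 7769 TPM and CD33 between 59.9 and 74.7 TPM in every sample, CD34 was below 0.1 TPM, and ELANE, which encodes neutrophil elastase, was below 0.3 TPM and so nearly absent. The labels do not say whether replicates came from separate cultures, so p-values measure only the spread between these samples, which may be technical.

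None of the 8 integrin genes passed the threshold in the cells labelled ARID1A-deficient. In edgeR, 0 of 8 were called at a false discovery rate (FDR) of 0.1 in sg1 against LacZ, where 0.0378% of all genes tested were called, 0 of 8 in sg5 against LacZ (0.0972% of all genes), 0 of 8 with both sgRNAs joined (0.167%) and 0 of 8 in sg1 against sg5 (0.0054%). Few genes of any kind were called, so these zeros are near the background. Of the 32 combinations of gene and comparison, 0 had an unadjusted p under 0.05, against 4.15% of all genes in sg1, 7.47% in sg5, 7.21% in the joined comparison and 1.38% between the sgRNAs. DESeq2 called 0 of 8 in each comparison as well, where it called 0.501%, 1.14%, 1.46% and 0.0152% of all genes. All 32 of the 95% intervals of the log2 fold change included 0, and 30 lay between -1 and 1. The 2 that did not were those of ITGAX. The median joined log2 fold change of the 8 genes was -0.03, beside -0.01 over all genes tested.

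**Figure D1:**
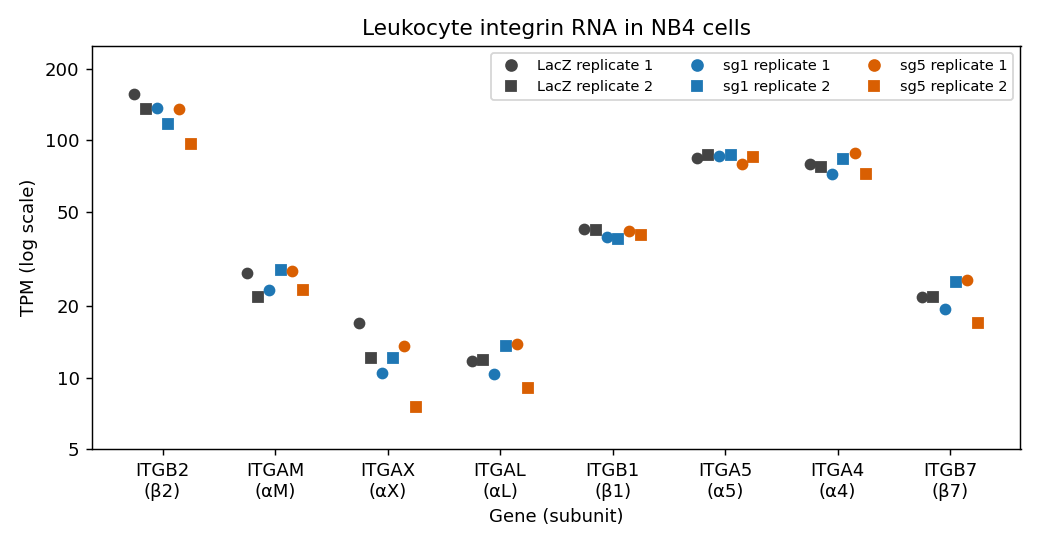
TPM on a log axis for each of the 8 genes, with 1 point per sample, grey for LacZ, blue for sg1 and orange for sg5, circles for replicate 1 and squares for replicate 2. ITGB2 lies highest at 96.5 to 156.1 TPM, ITGB1 is the gene in which both LacZ samples lie above all 4 ARID1A-deficient samples, and the orange square (sg5 replicate 2) is the lowest point in ITGB2, ITGAX, ITGAL and ITGB7.

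The β2 group comprised the shared beta chain and 3 alpha chains. ITGB2 was the most abundant of the 8 genes, at 156 and 135 TPM in LacZ, 136 and 117 with sg1, and 135 and 96.5 with sg5. The groups overlapped, since replicate 1 of each sgRNA lay at about the level of the lower LacZ sample, and the joined log2 fold change was -0.20 (SE 0.15, 95% interval -0.54 to 0.13, edgeR adjusted p = 0.771). For ITGB2 the interval corresponds to a ratio of ARID1A-deficient to LacZ between 0.688 and 1.10. Single samples moved its value: it was -0.07 joined and -0.0025 in sg1 without LacZ replicate 1, -0.32 joined without LacZ replicate 2, -0.26 in sg1 without sg1 replicate 1, and in sg5 -0.49 without sg5 replicate 1 (unadjusted p = 0.0171, edgeR adjusted p = 0.245) and -0.07 without sg5 replicate 2. Fewer cells of a type and less RNA per cell cannot be told apart in such bulk samples.

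ITGAM was at 27.6 and 21.8 TPM in LacZ, 23.5 and 28.4 with sg1, and 28.1 and 23.3 with sg5. Both LacZ samples differed from each other about as much as any samples did, and the ARID1A-deficient samples all lay between 23.3 and 28.4. The log2 fold change was 0.13 in sg1 (SE 0.20, 95% interval -0.33 to 0.59, adjusted p = 0.993) and 0.08 in sg5 (SE 0.20, interval -0.38 to 0.54, adjusted p = 0.938). Joined, it was 0.10 (interval -0.30 to 0.50, adjusted p = 0.904), a ratio between 0.814 and 1.42. A single sample set the sign of this value: it was -0.11 without LacZ replicate 2 and -0.04 without sg5 replicate 1. The CD11b RNA of these cells without ATRA thus gave no detectable difference at this depth and number of samples.

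ITGAX, whose product CD11c is also carried by monocytes and dendritic cells, had the widest intervals. It was at 17.1 and 12.1 TPM in LacZ, 10.4 and 12.1 with sg1, and 13.6 and 7.52 with sg5. The highest value was a LacZ sample and the lowest an sg5 sample, with the others overlapping between them. The log2 fold change was -0.38 in sg1 (SE 0.28, 95% interval -1.02 to 0.26) and -0.46 in sg5 (SE 0.28, interval -1.10 to 0.18), and joined it was -0.42 (SE 0.23, interval -0.97 to 0.12, edgeR adjusted p = 0.742). In this fit the joined interval corresponds to a ratio of ARID1A-deficient to LacZ between 0.512 and 1.09. Single samples moved these values too. The joined value was -0.15 without LacZ replicate 1 and -0.65 without sg5 replicate 1 (unadjusted p = 0.00265, edgeR adjusted p = 0.148), the sg1 value was -0.11 without LacZ replicate 1 and -0.61 without LacZ replicate 2, and the sg5 value was -0.12 without sg5 replicate 2 and -0.91 without sg5 replicate 1 (unadjusted p = 0.00224, edgeR adjusted p = 0.157). The joined value passed the threshold in 1 alternative, a fit with no filter on low counts (-0.43, adjusted p = 0.0971), and it was -0.18 (interval -0.40 to 0.03) without the 2 samples that stood apart.

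ITGAL, the alpha chain of LFA-1, was at 11.8 and 11.8 TPM in LacZ, 10.4 and 13.6 with sg1, and 13.8 and 9.09 with sg5. Here the LacZ samples were nearly equal and each sgRNA had 1 sample on either side of them. The joined log2 fold change was -0.05 (95% interval -0.43 to 0.33, edgeR adjusted p = 0.956), and its sign turned without sg1 replicate 1 (0.0036) and without sg5 replicate 2 (0.08).

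**Figure D2:**
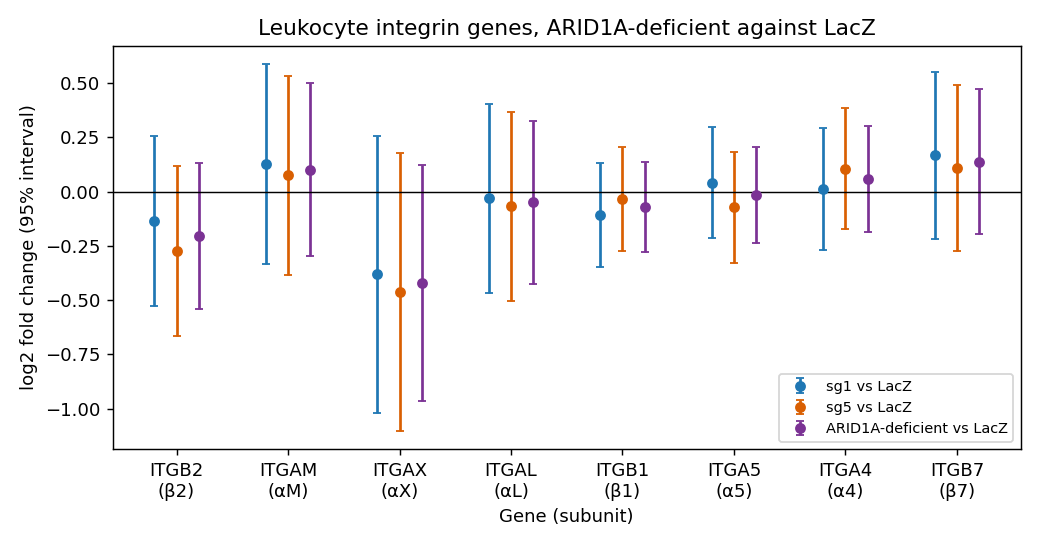
Log2 fold change against LacZ for each of the 8 genes in sg1 (blue), sg5 (orange) and both sgRNAs joined (purple), with points for the edgeR estimate and bars for its 95% interval. Every bar crosses 0, and the bars of ITGAX, which reach -1.02 and -1.10 for the sgRNAs taken singly, are the widest.

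Within the β2 group ITGAM was the most abundant alpha chain in every sample. It took 47.7% and 46.8% of the summed TPM of ITGAL, ITGAM, ITGAX and ITGAD in LacZ, 52.1% and 51.8% with sg1, and 49.8% and 57.2% with sg5. ITGAX took 29.5% and 26.0% in LacZ, 23.1% and 22.1% with sg1, and 24.0% and 18.5% with sg5. The ITGAM share was higher and the ITGAX share lower in all 4 ARID1A-deficient samples than in both LacZ samples. This did not hold over protein coding transcripts alone, where the ITGAM share was 48.3% and 44.9% in LacZ, 54.9% and 47.6% with sg1, and 49.9% and 53.5% with sg5. The ITGAX share over coding transcripts was 25.8% and 22.9% in LacZ, 18.2% and 23.3% with sg1, and 21.0% and 18.0% with sg5, so that replicate 2 of sg1 lay between the LacZ samples in both. Shares of a sum are tied to each other, so these are 1 observation, and they were not tested. ITGAL took between 20.4% and 25.4%, and ITGAD, the fourth partner of β2, between 1.22% and 2.41%. Together the 4 alpha chains reached 37.1% and 34.4% of the TPM of ITGB2 in LacZ, 33.1% and 46.9% with sg1, and 41.6% and 42.2% with sg5, so the RNA of the beta chain exceeded that of its partners in every sample. These are ratios of RNA and not of dimers. With protein coding transcripts only, ITGAL took a mean of 27.5% rather than 23.4%, and the alpha chains 21.4% of ITGB2 rather than 39.2%.

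Much of the ITGAM and ITGAX signal was assigned to transcripts that the annotation calls retained introns. For ITGAM, whose 8 matched transcripts were 4 protein coding and 4 with a retained intron, the latter took 46.9% and 50.3% of the TPM in LacZ, 39.5% and 55.6% with sg1, and 43.9% and 54.8% with sg5. Both the lowest and the highest share belonged to sg1. The corresponding ranges over the 6 samples were 49.0% to 54.8% for ITGAX, 31.5% to 50.6% for ITGB7, 18.2% to 24.8% for ITGA4, 13.3% to 19.97% for ITGAL, 12.4% to 16.9% for ITGA5, 1.85% to 3.92% for ITGB2 and 0.157% to 1.05% for ITGB1. Since TPM is scaled to length, a given number of reads makes a larger TPM in a short transcript: ITGAM-206, at 378 bases, was at 5.36 TPM in LacZ replicate 1, beside 10.7 TPM for the 4718 bases of the coding ITGAM-202. Counted over coding transcripts alone, ITGAM was at 14.7 and 10.8 TPM in LacZ, 14.2 and 12.6 with sg1, and 15.8 and 10.5 with sg5, which again overlapped between the groups.

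**Figure D3:**
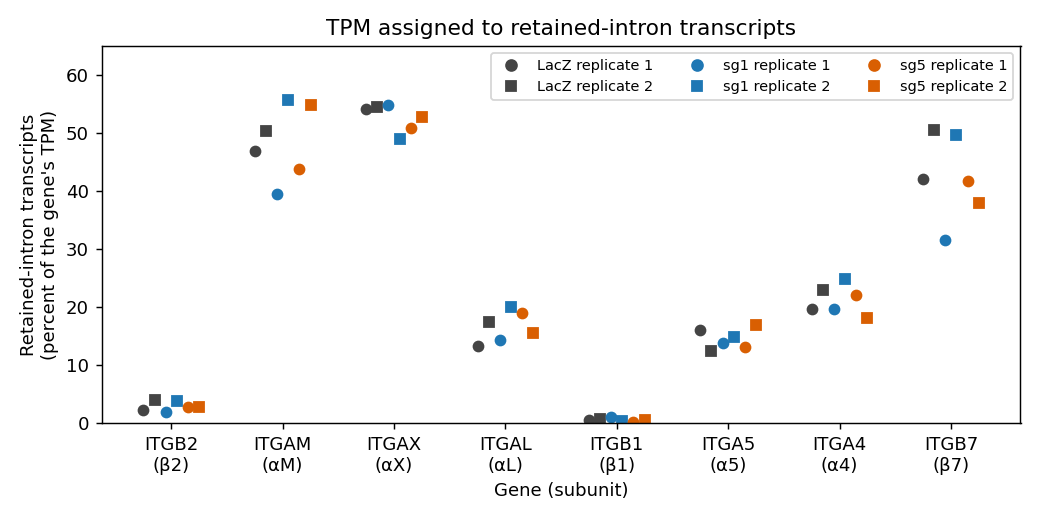
Percent of each gene's TPM that was assigned to transcripts annotated as retained introns, with 1 point per sample (colours and shapes by group and replicate). ITGAM and ITGAX lie between 39.5% and 55.6%, while ITGB2 and ITGB1 lie at or below 3.92% in every sample.

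Of the chains of the fibronectin and VCAM1 receptors, ITGB1 and ITGA5 varied least between samples (highest over lowest TPM 1.10 and 1.10), followed by ITGA4 (1.24), while ITGB7 (1.51) varied more than ITGAM (1.30). ITGB1, the beta chain of most of them, was at 42.2 and 42.1 TPM in LacZ, 39.2 and 38.3 with sg1, and 41.3 and 39.8 with sg5. All 4 ARID1A-deficient samples were below both LacZ samples, which 18.9% of all genes tested showed in 1 direction or the other, and ITGB1 was the only 1 of the 8 to do so. Its joined log2 fold change was -0.07 (SE 0.09, 95% interval -0.28 to 0.14, edgeR adjusted p = 0.858), and on the CPM scale the groups overlapped. ITGA5, the alpha chain of the main fibronectin receptor, was at 84.1 and 86.6 TPM in LacZ, 85.6 and 87.2 with sg1, and 79.5 and 85.1 with sg5. The sg5 replicates enclosed 1 LacZ sample, and the joined log2 fold change was -0.02 (95% interval -0.24 to 0.21, edgeR adjusted p = 0.982), with the sign turned without LacZ replicate 2 (0.05) or sg5 replicate 1 (0.01).

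ITGA4, the alpha chain of the VCAM1 receptor VLA-4, was at 79.2 and 76.9 TPM in LacZ, 71.9 and 83.7 with sg1, and 88.8 and 72.5 with sg5. In TPM each sgRNA had 1 sample above and 1 below both LacZ samples. On the CPM scale sg5 replicate 2 (200.5) lay between the LacZ samples (206.3 and 196.6). The joined log2 fold change was 0.06 (95% interval -0.18 to 0.30, edgeR adjusted p = 0.909). ITGB7, which joins ITGA4 in the gut-homing receptor and ITGAE in the receptor for E-cadherin, was at 22.0 and 21.8 TPM in LacZ, 19.5 and 25.2 with sg1, and 25.8 and 17.1 with sg5. The same division held in TPM but not on the CPM scale. There both sg1 samples (32.1 and 32.1) lay above the LacZ samples (30.3 and 26.8), and the sg5 samples (36.0 and 25.7) lay on either side. The joined log2 fold change was 0.14 (95% interval -0.20 to 0.47, edgeR adjusted p = 0.830). ITGB7 is the least certain of the 8, because 1886 bases of its exons overlap those of ZNF740 on the opposite strand, and 36.0% of its stretches of 31 bases also occur in ZNF740. The estimated counts of ZNF740 came to 155% of those of ITGB7, no stranded library kit is named, and without strand such reads cannot be told apart. With both genes counted together the log2 fold change was 0.07. ITGA4 made up between 45.6% and 52.8% of the summed TPM of ITGA4 and ITGA5 in the 6 samples.

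Over all 6 samples, ITGB2 had the highest mean level at 129.4 TPM (SD 20.3), and its lowest sample lay above every sample of the next gene. ITGA5 at 84.7 TPM (SD 2.78) and ITGA4 at 78.8 TPM (SD 6.57) overlapped each other and were above ITGB1 at 40.5 TPM (SD 1.64). ITGAM at 25.5 TPM (SD 2.89) and ITGB7 at 21.9 TPM (SD 3.34) overlapped, as did ITGAX at 12.1 TPM (SD 3.18) and ITGAL at 11.8 TPM (SD 1.83). With coding transcripts only, the last pair changed places, at 5.74 TPM for ITGAX and 7.22 TPM for ITGAL. Reads shared with other genes were few for ITGA4 (0% of stretches of 31 bases), ITGA5 (0.267%) and ITGAM (1.22%, mostly with ITGAX), and more for ITGB2 (3.45%, all in the antisense gene ITGB2-AS1), ITGAX (5.96%), ITGB1 (9.99%) and ITGAL (10.8%).

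The 2 samples that stood apart had the lowest values in part of these genes. Replicate 1 of sg1 and replicate 2 of sg5 had the lowest 2 TPM values of ITGAL, ITGAX, ITGA4 and ITGB7, 4 of the 8, compared with 21.5% of all genes tested. On the CPM scale this held for 2 of the 8, ITGAL and ITGAX. The share of all genes was not counted on that scale, so no difference from other genes is drawn. Without these samples edgeR called 0 of 8 again in each comparison, where it called 4.2% of all genes in the joined comparison, 2.2% in sg1, 4.09% in sg5 and 1.12% between the sgRNAs. In that fit the sgRNA groups had 1 sample each, assumed to vary like the LacZ pair. ITGAM was then at a joined log2 fold change of 0.21, ITGB7 at 0.25, ITGAL at 0.14 and ITGB2 at -0.16. In sg1 and sg5 taken singly, in that order, ITGAM was at 0.11 and 0.32 and ITGB7 at 0.17 and 0.33. ITGA4 was at 0.07 and 0.21, and ITGB2 at -0.25 and -0.07.

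The genes whose log2 CPM followed ITGAM most closely over the 6 samples were ATP9B (Pearson r = 0.991), which encodes a phospholipid flippase, SIRT2 (0.987), a deacetylase, FHL1 (0.985), FGD2 (0.981) and CD44 (0.980), the hyaluronan receptor. Of 13130 genes averaging 50 counts or more, 108 had an r above 0.9, and with 6 libraries that differ in depth these values are a description only. Of the other integrin genes listed, ITGB7 followed ITGAM most closely (0.926). ITGB2, the partner chain, had an r of 0.644 with ITGAM, ITGAL 0.643, ITGAX 0.608, ITGA4 0.647, ITGB1 0.125 and ITGA5 -0.539.

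Of 18 other integrin subunits listed, 15 were tested and 8 were below 1 TPM in every sample. In the joined comparison 2 of the 15 fell and 0 rose, where 0.167% of all genes were called, and the difference from 0 of 8 was not tested. The count was 3 in DESeq2 and without the 2 samples that stood apart, 1 with an offset for transcript length, with no robust estimation, at an FDR of 0.05 or without LacZ replicate 2 or sg1 replicate 1, and 0 without LacZ replicate 1. ITGA2B, the platelet integrin chain CD41, was at 9.26 and 8.40 TPM in LacZ, 1.77 and 2.07 with sg1, and 2.13 and 1.82 with sg5. Every ARID1A-deficient sample was far below both LacZ samples, with a log2 fold change of -2.11 in sg1 (SE 0.22, adjusted p = 0.0322), -2.10 in sg5 (SE 0.22, adjusted p = 0.0258) and -2.10 joined (95% interval -2.51 to -1.70, edgeR adjusted p = 0.00717). Its partner ITGB3 was listed at 4 estimated counts or fewer in every sample. The joined call was lost without LacZ replicate 1 (-1.89, adjusted p = 0.166) and held when any other sample was left out, and leaving out the 2 samples that stood apart gave -2.06. The calls of the single sgRNAs were lost without LacZ replicate 1 (adjusted p = 0.258 in sg1 and 0.224 in sg5) or LacZ replicate 2 (0.113 and 0.117), and that of sg1 without sg1 replicate 1 (0.128). ITGA7, a laminin receptor chain, was at 8.99 and 7.24 TPM in LacZ, 3.88 and 5.13 with sg1, and 5.07 and 4.76 with sg5, and fell by 0.996 on the log2 scale in the joined comparison (interval -1.33 to -0.66, edgeR adjusted p = 0.0961). That call was lost without LacZ replicate 1 (adjusted p = 0.780), LacZ replicate 2 (0.434) or sg1 replicate 1 (0.130), and also with the length offset (-0.74, adjusted p = 0.297) or with no robust estimation (adjusted p = 0.116). In the single sgRNAs the adjusted p of ITGA7 was 0.302 and 0.177 in edgeR, and 0.00234 and 0.000204 in DESeq2. Up to 8 exon bases of ITGA7 overlap BLOC1S1 or BLOC1S1-RDH5, and 44 overlap METTL7B, on the opposite strand. ITGA3, a laminin receptor chain named here after its values were seen, was the third gene called in DESeq2 (joined, adjusted p = 0.00692) and without the 2 samples that stood apart (-0.85). It was at 2.06 and 2.33 TPM in LacZ and 0.951 to 1.33 TPM in the others, and in edgeR its joined log2 fold change was -0.99 (95% interval -1.45 to -0.52, adjusted p = 0.206).

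The most abundant subunit outside the 8 was ITGAE, the partner of ITGB7 that binds E-cadherin, at a mean of 34.6 TPM. It ranged from 32.3 to 34.5 TPM in LacZ and from 30.1 to 40.7 TPM in the ARID1A-deficient samples, with a joined log2 fold change of 0.11 (95% interval -0.25 to 0.46). ITGAV, the alpha chain of vitronectin receptors, was at a mean of 6.80 TPM and a joined log2 fold change of -0.02. The median joined log2 fold change of the 15 subunits was -0.21, beside -0.01 over all genes tested.

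**Figure D4:**
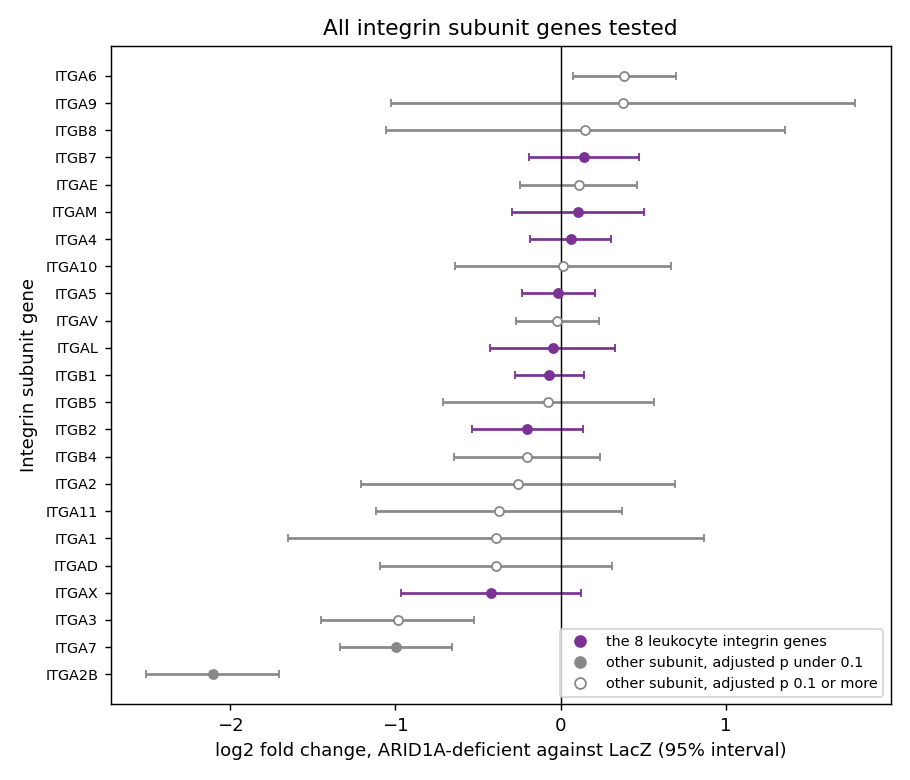
Joined log2 fold change against LacZ with its 95% interval (edgeR) for each integrin subunit gene tested, ordered by value, with the 8 leukocyte integrin genes in purple and the others in grey (filled where the adjusted p was under 0.1). ITGA2B at -2.10 and ITGA7 at -0.996 lie lowest, and the purple points lie between -0.42 and 0.14.

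Genes around the integrins were counted from hand-written lists. Of 14 ligand genes tested, 0 were called in any comparison, beside at most 0.167% of all genes. ICAM3, a ligand of LFA-1, was the most abundant of them, at 173 and 155 TPM in LacZ, 249.5 and 256 with sg1, and 273 and 204 with sg5, with a joined log2 fold change of 0.59 (95% interval 0.31 to 0.87, edgeR adjusted p = 0.212). All 4 ARID1A-deficient samples were above both LacZ samples, and the value passed the threshold in DESeq2 (adjusted p = 0.00162) and without the 2 samples that stood apart (log2 fold change 0.68). ICAM2 was at 0.40 (adjusted p = 0.634), ICAM4 at 0.35 (adjusted p = 0.683) and TGFB1, whose latent form is bound by αV integrins, at -0.16 (adjusted p = 0.781). Without the 2 samples that stood apart, ICAM3 and ICAM4 rose and C3, ICAM1 and TGFB1 fell, 5 of the 14, against 4.2% of all genes. These genes were named after their values were seen.

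Of 19 genes tested for integrin activation, 0 were called in any comparison, beside at most 0.167% of all genes. FERMT3, the kindlin of blood cells that switches on β2 integrins, was at 247 and 231 TPM in LacZ, 180.4 and 188 with sg1, and 195 and 147 with sg5. It lay lower in all 4 ARID1A-deficient samples, at a joined log2 fold change of -0.38 (95% interval -0.66 to -0.10, unadjusted p = 0.0127, edgeR adjusted p = 0.494). RASGRP2, the activator of the RAP1 switch, was at 257 to 279 TPM and -0.05, and FLNA, the filamin that competes with talin on beta tails, was at 228 to 291 TPM and 0.09. The largest values with an unadjusted p under 0.05 were those of RAP1GAP, which turns RAP1 off (-0.84, adjusted p = 0.587, at 1.07 TPM or less), and APBB1IP, the RAP1 effector RIAM (0.45, adjusted p = 0.296). APBB1IP passed the threshold in DESeq2 (adjusted p = 0.0333). Without the 2 samples that stood apart, which left 1 sample per sgRNA, the joined log2 fold change was 0.44 for APBB1IP and -1.15 for RAP1GAP. FERMT3 was lower in that fit as well.

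Of 26 genes tested for signalling below integrins, 0 were called in any comparison, beside at most 0.167% of all genes. The Src family kinase FGR was at 4.88 and 4.69 TPM in LacZ, 2.69 and 3.29 with sg1, and 3.17 and 1.55 with sg5, with a joined log2 fold change of -0.92 (95% interval -1.41 to -0.42, edgeR adjusted p = 0.296). It passed the threshold in DESeq2 (adjusted p = 0.0195). LCP2, the adaptor SLP-76, was at -0.33 (adjusted p = 0.493). The abundant cytoskeletal genes RHOA (0.13), RAC2 (0.06) and ZYX (-0.15) each had an interval that included 0. Without the 2 samples that stood apart, which left 1 sample per sgRNA, PLCG2 was higher and FGR was at a joined log2 fold change of -0.70.

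Of 18 myeloid surface markers tested, 0 were called in any comparison, beside at most 0.167% of all genes. CXCR4, the receptor that retains myeloid cells in the marrow, was at 59.8 and 51.6 TPM in LacZ, 81.4 and 77.03 with sg1, and 82.2 and 79.4 with sg5. The groups did not overlap, and the joined log2 fold change was 0.57 (95% interval 0.34 to 0.80, edgeR adjusted p = 0.136). It passed the threshold in DESeq2 (adjusted p = 0.000778) and without the 2 samples that stood apart (log2 fold change 0.54). CD53, a tetraspanin, was at 0.40 (adjusted p = 0.446), ANPEP, the aminopeptidase CD13, at 425 to 567 TPM and -0.01, and CD44 at 0.13. Of the markers of late granulocytes in this list, FCGR3B and CD177 were listed at 0 TPM in every sample, CEACAM8 was at 0.147 TPM or less and CXCR1 at 0.112 TPM or less. CXCR2, a chemokine receptor of neutrophils, was however at 5.62 and 5.89 TPM in LacZ and 2.74 to 5.20 TPM in the others, and C5AR1, the receptor of complement C5a, at 24.4 and 28.4 TPM in LacZ and 5.60 to 21.95 TPM in the others. These were also named after their values were seen. Without the 2 samples that stood apart, which left 1 sample per sgRNA, CXCR4 and JAML were higher and C5AR1 was lower in the joined comparison.

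The summed TPM of some marker lists, the promyelocyte markers included, did not overlap between the groups. The erythroid sum and the T and NK sum did overlap. Like the 8 integrin genes, the promyelocyte markers gave no call in the edgeR fit of all 6 samples. The 8 promyelocyte markers, among which CD34 and HLA-DRA were listed as low in promyelocytes, summed to 8139 and 9023 TPM in LacZ. In the ARID1A-deficient samples the sum was 6819 to 8062 TPM. Most of it came from MPO, at 6913 and 7769 TPM in LacZ and 5991 to 6813 TPM in the others. The joined log2 fold change of MPO was -0.13 (95% interval -0.40 to 0.14, edgeR adjusted p = 0.802). MPO, AZU1, CTSG, CD33 and the nearly absent ELANE, 5 of the 8, were lower in all 4 ARID1A-deficient samples, and HLA-DRA was higher. Over all genes tested, 18.9% separated the groups in 1 direction or the other. In edgeR 0 of 6 tested were called, beside 0.167% of all genes in the joined comparison. CTSG, the granule protease cathepsin G, was at 158 to 164 TPM in LacZ and 94.6 to 122 TPM in the others, with a joined log2 fold change of -0.52 (edgeR adjusted p = 0.265), and AZU1, the granule protein azurocidin, was at -0.35 (adjusted p = 0.348). HLA-DRA, a chain of MHC class II that is low in promyelocytes, was at 0.386 TPM or less in LacZ and 1.18 to 2.83 TPM in the others (3.35, adjusted p = 0.170). AZU1, CTSG and HLA-DRA were called in DESeq2. PRTN3 overlapped between the groups, at 684 and 731 TPM in LacZ and 429 to 852 TPM in the others. The highest of its values was that of sg1 replicate 1, and its joined log2 fold change was -0.21 (edgeR adjusted p = 0.860). Without the 2 samples that stood apart, which left 1 sample per sgRNA, PRTN3 was at -0.64, AZU1 at -0.35, CTSG at -0.40 and HLA-DRA at 3.12. The summed TPM of 14 eosinophil, basophil and mast cell markers was 116.3 and 120.5 in LacZ and 47.2 to 52.0 in the ARID1A-deficient samples, with CLC, KIT and CPA3 below 0.3 TPM throughout. Of this list 3 of 10 genes tested fell and 0 rose in the joined comparison, where 0.167% of all genes were called. These genes were named here after their values were seen. PRG2, the major basic protein of eosinophil granules, went from 65.3 and 73.5 TPM in LacZ to 21.3 to 25.9 TPM (log2 fold change -1.55, edgeR adjusted p = 0.00634), HDC, the histidine decarboxylase that makes histamine, from 17.7 TPM in both to 6.17 to 7.87 TPM (-1.26, adjusted p = 0.0182), and EPX, eosinophil peroxidase, from 2.96 and 3.17 TPM to 0.625 to 1.05 TPM (-1.86, adjusted p = 0.0182). The 6 megakaryocyte markers summed to 9.48 to 11.1 TPM in LacZ and 2.81 to 3.62 TPM in the others, mostly from ITGA2B itself, with GP9 and PF4 at 0 in every sample. The 5 monocyte and macrophage markers measured summed to 126 and 134 TPM in LacZ and 179 to 344 TPM in the others, nearly all from LYZ, with CD14 below 1 TPM. The 6 erythroid markers summed to 0.261 TPM or less, with HBB, HBA1 and HBA2 at 0. The 6 T and NK markers summed to 25.8 to 28.6 TPM, mostly from CD3D and NCAM1, with CD3E below 0.05 TPM. In all 4 ARID1A-deficient samples CD3D was higher (0.38, edgeR adjusted p = 0.696) and NCAM1 lower (-0.48, edgeR adjusted p = 0.600). The 5 B cell markers summed to 34.4 to 39.9 TPM in LacZ and 44.4 to 52.9 TPM in the others, with MS4A1 at 0.130 TPM or less. Most came from CD79B (0.20), which overlapped, and CD79A, higher in all 4 (0.87, adjusted p = 0.203 in edgeR and 0.00202 in DESeq2). The part of these lists in the integrin values was not tested.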

How the data were processed

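RNA-sequencing of 6 NB4 samples was used, in 3 groups of 2 taken from the labels. The authors quantified reads per transcript with kallisto, and per the file headers the deposited values were estimated counts and TPM for 196354 transcripts. The submitters' processing notes name hg19, and the study's methods state a kallisto version and transcript set for its mouse libraries. Those for these human libraries are not given in the sources used here. Transcripts matched to GENCODE 29 (GRCh38) by identifier (92.6%, holding 95.4% to 95.5% of the estimated counts) were added up per gene (52992 genes) and the sums rounded. Coordinates are 1-based on GRCh38 and come from this match.

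Differential expression was tested with edgeR 4.0.16 (R 4.3.3), after TMM scaling and the filterByExpr filter (minimum count 10), by the robust quasi-likelihood F-test, with all 6 samples in 1 fit, group as the only term and an FDR of 0.1. Benjamini-Hochberg adjustment covered all 18514 genes tested. Standard errors and 95% intervals were derived from the F statistic. Intervals at this depth are set by the spread between samples (common biological coefficient of variation 16.6%) more than by counting. DESeq2 1.42.0, the tool the study used, and other settings were run as alternatives, of which the crossed replicate block and the fit without sg1 replicate 1 and sg5 replicate 2 were chosen after seeing the data. The fitting functions were tested on simulated data, and Python 3.11.15 was used for joins and plots. TPM levels, shares and correlations were described without a test.

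The 8 genes and all lists were chosen with earlier results of these data known. Apart from the 8, the genes named were ARID1A, any gene called from the lists of other integrin subunits, ligands, activation, signalling and surface markers, the 3 of highest mean TPM in such a list, up to 2 with the largest joined change at an unadjusted p under 0.05, the 5 most like ITGAM, genes that overlap the 8, and defining cell type markers. RASSF5, CD24, PECAM1 and MRC1 were not analysed here. Of the 8 genes, ITGAM, ITGA4, ITGA5, ITGB1 and ITGB7 were in the RefSeq promoter table (GRCh38.p14) and ITGAL, ITGAX and ITGB2 were not found in it.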

Additional observations from a re-analysis of the deposited data

Results flagged for a closer look

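ITGA5 was singled out because both sg1 samples lay above the LacZ mean TPM and both sg5 samples below it. The mean TPM was 85.4 (SD 1.79, n = 2) in LacZ, 86.4 (SD 1.14, n = 2) in sg1 and 82.3 (SD 4.02, n = 2) in sg5, a difference of 4.08 TPM between the sgRNAs. The TPM difference itself was not tested. In counts, edgeR gave a log2 fold change of sg1 against sg5 of 0.11 (SE 0.11, 95% interval -0.14 to 0.37, adjusted p = 1). Of the 8 genes, 0 had a sample far outside the other ARID1A-deficient samples in TPM by Dixon's test. ITGA5 came closest, with a gap over range of 0.736 against a critical value of 0.829. With 4 values per gene this test can flag little, so no conclusion is drawn from it.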

How the results depend on the processing

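The 8 genes had 600 log2 fold changes under the alternatives, of which 559 kept their direction and their side of the threshold, 40 changed sign without being called, and 1 (ITGAX, joined, no low-count filter, which made 1 of the 8 called) passed the threshold. Part of the 559 could not change. The alternative at an FDR of 0.05 repeated the same fit, and adding overlapping genes left the counts of ITGAM, ITGAX and ITGA4 as they were. Counts of all genes called moved far more. In sg1, sg5, joined and sg1 against sg5, in that order, they were 7, 18, 31 and 1 as reported, 98, 186, 230 and 5 in DESeq2, 345, 632, 701 and 86 with no low-count filter, and 424, 787, 809 and 215 without sg1 replicate 1 and sg5 replicate 2. Leaving out each sample in turn gave 1 to 33, 0 to 78, 3 to 193 and 0 to 8, with the 78 and the 193 reached without sg5 replicate 1. With only the groups compared, counts were 18 in sg1, 29 in sg5 and 0 between the sgRNAs. With a mean of at least 50 counts they were 4 in sg1, 19 joined and 0 between the sgRNAs, with no robust estimation 17 joined, with an FDR of 0.05 12 joined and 0 between the sgRNAs, and with the length offset 2 between the sgRNAs. The cause was not tested.

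Same-numbered replicates deviated together little (correlations of 0.072 for LacZ and sg1, 0.012 for LacZ and sg5 and -0.206 for sg1 and sg5, over 18514 genes), so the numbers were not taken to pair the samples. With the replicate block, counts of all genes called were 1, 1, 3 and 0, and they were 1, 1, 5 and 0 once the length offset was also used. None of the 8 genes was called with the block, where ITGAM was at 0.15 in sg1 and 0.07 in sg5. ITGA2B was not called with it in sg1 (-2.09, adjusted p = 0.242) or sg5 (-2.10, adjusted p = 0.204), nor ITGA7 joined (-0.99, adjusted p = 0.320). A crossed replicate block, chosen after seeing the data, called 59, 157, 194 and 2 genes.

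Signs turned as follows on the log2 scale. ITGAL was at 0.056 in sg1, 0.0045 in sg5 and 0.0302 joined with the length offset, at 0.0595 in sg1 and 0.0291 joined with both the replicate block and that offset, and at 0.0723 in sg1, 0.20 in sg5, 0.14 joined and -0.13 between the sgRNAs without the 2 samples that stood apart. ITGA5 was at 0.0268 joined with the length offset and 0.0266 with the replicate block added. ITGA4 was at -0.0009 in sg1 with a mean of at least 50 counts (0.0727 without the 2 samples that stood apart), and ITGAM at -0.0003 between the sgRNAs with the length offset. Between the sgRNAs and without the 2 samples that stood apart, ITGB7 was at -0.16, ITGAX at -0.15, ITGB2 at -0.18 and ITGAM at -0.21. Leaving out each sample in turn gave ITGAM -0.0896 to 0.38 in sg1, -0.20 to 0.34 in sg5, -0.11 to 0.36 joined and -0.19 to 0.32 between the sgRNAs. The same ranges were -0.13 to 0.07, -0.38 to 0.20, -0.21 to 0.08 and -0.23 to 0.35 for ITGAL. For ITGA5 they were -0.0215 to 0.11 in sg1, -0.12 to 0.0013 in sg5 and -0.0729 to 0.0536 joined, for ITGA4 -0.0413 to 0.066 in sg1, for ITGB7 -0.13 to 0.33 in sg5 and -0.16 to 0.30 between the sgRNAs, for ITGAX -0.27 to 0.53 and for ITGB2 -0.06 to 0.36 between the sgRNAs, and for ARID1A -0.21 to 0.0884 joined. With protein coding transcripts only, mean TPM was 13.1 for ITGAM, 7.22 for ITGAL, 5.74 for ITGAX, 60.5 for ITGA4, 69.4 for ITGA5 and 12.4 for ITGB7, ITGAL took 27.5% of the β2-partner alpha TPM, which came to 21.4% of ITGB2, and ITGB7 took 7.06% of the TPM of ITGB1, ITGB2 and ITGB7. With 2 samples a group, differences inside the intervals given were not excluded.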
